A study of Mus musculus with 30 samples.

Results

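Cardiac stress and hypertrophy are commonly read from Nppa, Nppb, Myh6, Myh7, Acta1, Ankrd1, Xirp2 and Rcan1, and these 8 genes are described here across mouse hearts of different age, time of day and diet, and across cultured cells with lowered NAD+. They were chosen by name as familiar markers of wall stress and hypertrophy, and they make up 8 of 20764 genes listed for the hearts and 8 of 54532 listed for the cultures. All 8 passed the filter on low counts in the hearts, whereas only 2 of 8, Ankrd1 and Rcan1, passed it in the cultures.

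When the heart wall is stretched or overloaded, cardiomyocytes secrete the natriuretic peptides encoded by Nppa and Nppb, which lower blood volume and pressure through guanylyl cyclase receptors. They also shift the sarcomere towards forms typical of the fetal heart, with more β-myosin heavy chain (Myh7) relative to the faster α form (Myh6) and more skeletal α-actin (Acta1). Ankrd1 and Xirp2 encode stretch-responsive proteins of the Z-disc, nucleus and intercalated disc, and Rcan1 encodes a feedback inhibitor of calcineurin whose inner promoter is switched on by calcineurin and NFAT.

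The hearts came from female mice labelled C57BL6, by the study's methods a mix of the C57BL6/J and C57BL6/N backgrounds, kept under 12 h of light and 12 h of darkness. Young mice were 2 months old, old H2O mice were 12 months old and drank plain water, and old NR mice were 12 months old and had received nicotinamide riboside (NR, an NAD+ precursor) at 3 g/l in the water from the age of 2 months. Each of these was sampled at ZT10, late in the light phase, and at ZT22, late in the dark phase, with 3 hearts in each of 6 groups. The 12 cultures carry the label HL-1, a line derived from a mouse atrial tumour, and were untreated, given FK866 (an inhibitor of the NAD+ salvage enzyme NAMPT), given FK866 and NR, or given FK866, NR and Ex527 (an inhibitor of SIRT1), with 3 cultures in each of 4 groups. The hearts had 3922137 to 7562215 counts per library and the cultures 21337922 to 35000109. The cultures are of 1 line, so their spread describes separate wells and not separate animals.

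In GRCm38 coordinates with GENCODE M21 gene models, Nppb (chr4:147985788-147987205) and Nppa (chr4:148000722-148002079) lie next to each other on the plus strand. Myh6 (chr14:54941921-54966927) and Myh7 (chr14:54970684-54994626) form a second pair of neighbours on the minus strand. Acta1 (chr8:123891769-123894751, minus strand), Ankrd1 (chr19:36111961-36120099, minus strand), Xirp2 (chr2:67446002-67526614, plus strand) and Rcan1 (chr16:92391953-92470867, minus strand) stand alone. The values below are counts over the exons of each gene.

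Promoter sequence was available from RefSeq for 8 of 8 genes, in 10 windows, since Myh7 and Rcan1 each have more than 1 start. Windows are the 250 bases before each RefSeq start in GRCm38.p6. The 3 genes whose values moved most in the comparisons below, Nppb, Rcan1 and Ankrd1, are shown, with motif matches on either strand in capitals. In Nppb (chr4:147985650-147985899, plus strand, partly inside the longer GENCODE span of the gene) the capitals mark 1 M-CAT element (CATTCC, the site of TEAD factors) and 2 GATA elements (AGATAA or TGATAA). In Ankrd1 (chr19:36119845-36120094, minus strand) they mark 2 M-CAT elements and 1 GATA element. In the outer Rcan1 promoter (chr16:92466170-92466419, minus strand) they mark 1 E-box (CACGTG, the site bound by CLOCK and BMAL1 among other factors). In the inner one (chr16:92400079-92400328, minus strand) they mark 3 copies of GGAAA, the core of an NFAT site. The Ankrd1 window and both Rcan1 windows lie wholly inside the GENCODE spans of their genes.
Nppb: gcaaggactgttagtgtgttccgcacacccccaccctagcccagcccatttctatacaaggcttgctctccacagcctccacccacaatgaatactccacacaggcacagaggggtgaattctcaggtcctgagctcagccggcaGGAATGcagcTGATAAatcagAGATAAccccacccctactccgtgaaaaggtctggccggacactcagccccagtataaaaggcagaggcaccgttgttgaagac
Ankrd1: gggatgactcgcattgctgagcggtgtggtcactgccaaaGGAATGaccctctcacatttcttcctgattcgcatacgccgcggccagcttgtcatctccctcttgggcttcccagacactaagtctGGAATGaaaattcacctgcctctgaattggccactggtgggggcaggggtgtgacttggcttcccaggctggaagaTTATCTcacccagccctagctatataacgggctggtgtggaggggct
Rcan1 outer: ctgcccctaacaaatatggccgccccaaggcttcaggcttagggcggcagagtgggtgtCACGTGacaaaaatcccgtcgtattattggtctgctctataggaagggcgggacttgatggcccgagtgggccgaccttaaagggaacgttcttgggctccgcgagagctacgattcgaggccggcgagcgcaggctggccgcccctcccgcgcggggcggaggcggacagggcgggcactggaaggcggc
Rcan1 inner: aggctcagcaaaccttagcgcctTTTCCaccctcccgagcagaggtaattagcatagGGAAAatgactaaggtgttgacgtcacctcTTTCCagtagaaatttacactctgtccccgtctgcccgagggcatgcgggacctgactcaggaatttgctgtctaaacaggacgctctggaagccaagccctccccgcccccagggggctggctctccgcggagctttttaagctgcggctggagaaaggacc

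Across 32526 promoter windows of the same length, 12.6% held CATTCC at least once and 1.02% held it as often as Ankrd1 did. A GATA element was present in 16.5% of windows, and 2.62% held at least as many as Nppb. CACGTG was present in 6.04% of windows, and among the windows of these 8 genes it was present only in the outer Rcan1 promoter. GGAAA is short and common, with 55.7% of windows holding it and 6.42% holding at least as many copies as the inner Rcan1 promoter. These are matches of letters and not mapped binding sites, and counts per gene do not separate transcripts of the inner and outer Rcan1 starts.

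Levels were compared between genes after division of the counts by exon length in kilobases and by the library total (RPKM). The median over 18 hearts was 266 for Myh6, 209 for Ankrd1, 115 for Acta1, 109 for Nppb, 80.7 for Xirp2, 54.4 for Rcan1, 52.1 for Myh7 and 45.5 for Nppa. Lengths were those given with the culture counts, which equal the GENCODE M21 exonic length for every member but Ankrd1 (1765 bases against 2886). With the longer Ankrd1 model, an alternative chosen after seeing the data, its median was 128 and its range 112 to 179. That range overlapped the range of Acta1 (71.8 to 172) and lay below that of Myh6 (195 to 350), whereas with the shorter model the Ankrd1 range of 183 to 292 overlapped that of Myh6 and lay above that of Acta1. From Acta1 downwards each gene's range over hearts overlapped that of its neighbour in the order. Everything that follows for the hearts is given as normalised counts, which are counts scaled to a common library of 5651245 by edgeR's TMM factors and which compare the same gene between samples. In whole tissue, a change in the number of cells of a type and a change in RNA per cell cannot be told apart.

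**Figure D1:**
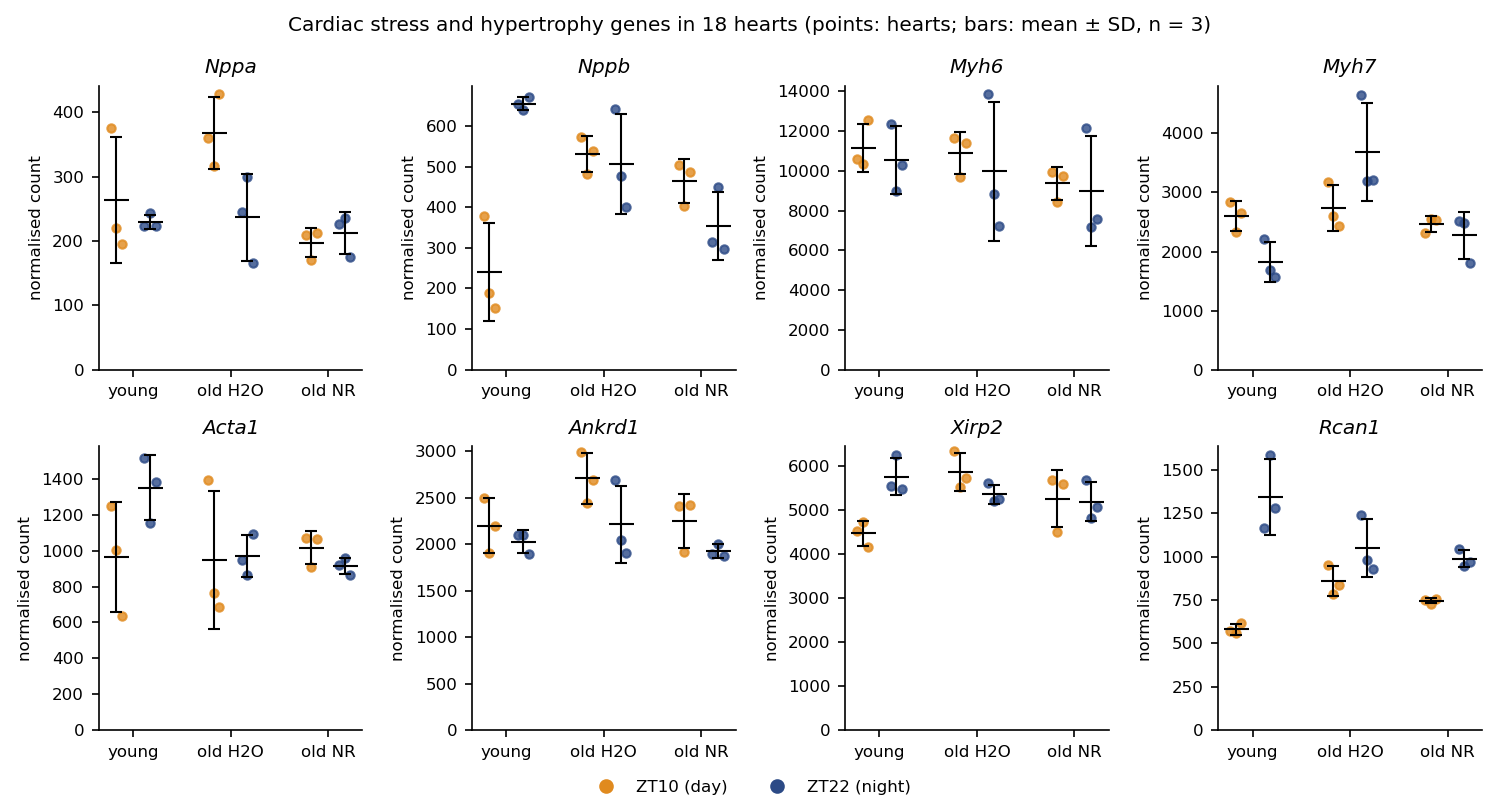
Normalised counts of the 8 genes in each of the 18 hearts, by age, drink and time (points, hearts, bars, mean ± SD, n = 3). Nppb and Rcan1 separate ZT10 from ZT22 in young hearts, and Myh7 is highest in old H2O hearts at ZT22, at 3199 to 4644.

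Young hearts differed most between day and night. Of the 8 genes, 4 passed an adjusted p of 0.05 between ZT10 and ZT22 (3 lower and 1 higher at ZT10), against 14.4% of all 15443 genes tested (7.57% lower and 6.80% higher), and 4 of 8 had groups that did not overlap, against 30.6% of all genes. The largest of these differences were in Nppb and Rcan1. The median log2 difference was -0.14 for the 8 genes and 0.01 for all genes tested.

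Nppb, which encodes the B-type natriuretic peptide, had 379, 190 and 153 normalised counts in young hearts at ZT10 and 654, 640 and 671 at ZT22. Every young heart at ZT22 was thus above every one at ZT10, and the 3 night hearts lay close together. The log2 difference of ZT10 from ZT22 was -1.44 ± 0.22 (SE, n = 3 and 3, adjusted p = 8.01e-05, edgeR). In old H2O hearts the counts were 572, 483 and 538 at ZT10 and 642, 478 and 400 at ZT22, and the groups overlapped (log2 difference 0.10). Old NR hearts had 505, 402 and 487 at ZT10 and 314, 449 and 297 at ZT22, with a log2 difference of 0.37 that did not pass the test (adjusted p = 0.350, edgeR). The difference between old H2O and young hearts in the day to night contrast, tested as an interaction, was 1.53 ± 0.29 on the log2 scale (adjusted p = 0.00309, edgeR). It ranged from 1.31 to 2.02 and stayed called in all 12 fits that omitted a single heart.

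Seen at each time, the Nppb level of old H2O hearts was higher than that of young hearts at ZT10, by 1.13 ± 0.22 on the log2 scale (adjusted p = 0.00320, edgeR), with no overlap of the groups. At ZT22 it was not distinguishable (-0.40, adjusted p = 0.186, edgeR), although 1 old H2O heart reached 642 and the others 478 and 400. Old NR hearts were higher than young ones at ZT10 (0.94 ± 0.22, adjusted p = 0.0159, edgeR) and lower at ZT22 (-0.87 ± 0.20, adjusted p = 0.00508, edgeR). These contrasts share the same young hearts and are not independent of each other or of the interaction. The ZT10 call for old NR hearts was lost without old NR heart 1 or 3 (0.87 and 0.91) or young heart 2 or 3 (0.78 and 0.71), with an adjusted p of up to 0.107 (edgeR). Young ZT10 heart 1, with 379, was well above the other young day hearts, and without it the age difference averaged over both times went from 0.36 (adjusted p = 0.120, edgeR) to 0.61 (adjusted p = 0.00305, edgeR).

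Rcan1 had 569, 558 and 617 normalised counts in young hearts at ZT10 and 1163, 1584 and 1280 at ZT22. The lowest night heart exceeded the highest day heart by a wide margin. The log2 difference of ZT10 from ZT22 was -1.21 ± 0.11 (SE, adjusted p = 8.34e-08, edgeR), the smallest p among the 8 genes in any heart comparison. In old H2O hearts the counts were 953, 786 and 836 at ZT10 and 1241, 978 and 930 at ZT22, and with 930 below 953 the groups overlapped (log2 difference -0.28, adjusted p = 0.146, edgeR). In old NR hearts they were 750, 728 and 757 at ZT10 and 1042, 948 and 971 at ZT22, without overlap. The old NR difference was -0.40 (adjusted p = 0.0241, edgeR), and it held only without old NR ZT22 heart 2, the other 5 omissions giving -0.36 to -0.41 with an adjusted p of 0.0583 to 0.0836 (edgeR).

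The age by time interaction of Rcan1 was 0.93 ± 0.15 on the log2 scale (adjusted p = 7.12e-04, edgeR), ranged from 0.79 to 1.05 with single hearts omitted, and stayed called in each of those fits. Both ends of the contrast moved. Old H2O hearts were higher than young ones at ZT10 (0.56 ± 0.11, adjusted p = 0.00324, edgeR) and lower at ZT22 (-0.37 ± 0.10, adjusted p = 0.0191, edgeR). At ZT22 the old H2O heart with 1241 lay within the young range, and the call was lost without old H2O heart 2 (-0.32) or 3 (-0.29) or young heart 2 (-0.23, adjusted p = 0.146, edgeR), and when only these groups were fitted (-0.36, adjusted p = 0.119, edgeR). Old NR hearts were lower than young ones at ZT22 (-0.45 ± 0.10, adjusted p = 0.00477, edgeR) and had a log2 difference of 0.36 at ZT10 that did not pass the test (adjusted p = 0.0677, edgeR).

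Xirp2, which encodes an actin-binding repeat protein of the intercalated disc, had 4529, 4717 and 4168 normalised counts in young hearts at ZT10 and 5546, 6249 and 5480 at ZT22. The night hearts were all higher (log2 difference of ZT10 from ZT22 -0.36 ± 0.10, adjusted p = 0.0211, edgeR), a small difference beside those of Nppb and Rcan1. In old H2O hearts the counts were 6339, 5513 and 5730 at ZT10 and 5607, 5212 and 5247 at ZT22. Old NR hearts had 5681, 4508 and 5586 at ZT10 and 5675, 4819 and 5078 at ZT22. The interaction of age and time was 0.50 ± 0.15 (adjusted p = 0.0458, edgeR), close to the threshold, and only the omission of old H2O or young ZT22 heart 1 kept the call, the other 10 giving 0.43 to 0.54 with an adjusted p of up to 0.12 (edgeR). Old H2O hearts were higher than young ones at ZT10 by 0.39 ± 0.10 (adjusted p = 0.0287, edgeR), and this held only without old H2O heart 2, the other 5 omissions giving 0.33 to 0.43 with an adjusted p of up to 0.138 (edgeR). The young day to night call was lost without ZT10 heart 1 (-0.37) or 3 (-0.32) or ZT22 heart 2 (-0.3, adjusted p = 0.11, edgeR).

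**Figure D2:**
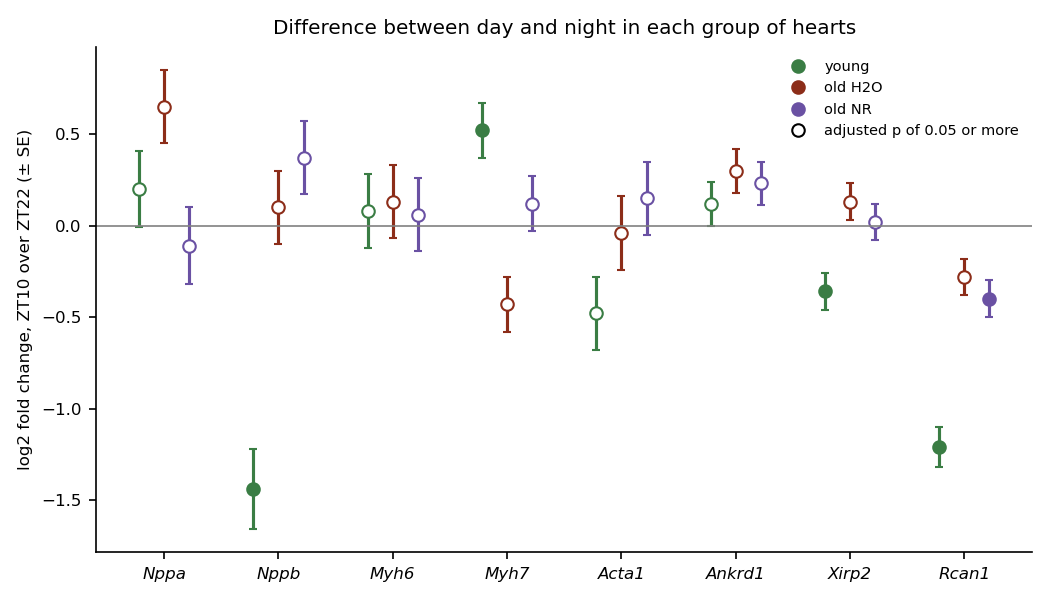
Log2 difference of ZT10 from ZT22 for each of the 8 genes in young, old H2O and old NR hearts (points, edgeR estimate, filled where the adjusted p is under 0.05, bars, SE). Nppb runs from -1.44 in young hearts to 0.10 in old H2O hearts, and Myh7 from 0.52 to -0.43.

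In the age by time interaction, 4 of the 8 genes passed (Nppb, Rcan1 and Xirp2 positive, Myh7 negative), against 6.89% of all genes tested (3.13% positive and 3.76% negative). None of the 8 passed for time within old H2O hearts (4.20% of all genes did, and 2 of 8 genes had groups that did not overlap, against 22.2%), and 1 of 8, Rcan1, passed within old NR hearts (5.37%). For old H2O against young hearts, 3 of 8 passed at ZT10 (all higher, where 5.87% of all genes passed and 2.95% were higher) and 2 of 8 at ZT22 (Myh7 higher and Rcan1 lower, where 14.1% of all genes passed, 7.96% higher and 6.17% lower). For old NR against young hearts, 1 of 8 passed at ZT10 (Nppb, higher, where 4.28% of all genes passed and 2.38% were higher) and 2 of 8 at ZT22 (Nppb and Rcan1, both lower, where 14.2% of all genes passed and 6.58% were lower). Groups did not overlap for 3 of 8 genes at ZT10 (27.8% of all genes) and 2 of 8 at ZT22 (28.2%) between old H2O and young hearts, for 3 of 8 at ZT10 (25.4%) and 3 of 8 at ZT22 (27.5%) between old NR and young hearts, and for 1 of 8 at ZT22 (14.7%) between old NR and old H2O hearts.

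Immediate early genes, which respond quickly to stimulation, were read in the same hearts. The sum of 10 immediate early genes was 1323, 2709 and 1667 normalised counts in young hearts at ZT22 and 1255, 1463 and 1546 at ZT10, against 1062 to 1204 in old H2O hearts and 982 to 1046 in old NR hearts at ZT22. Of these 10 genes, 6 were lower at ZT10 than at ZT22 in young hearts, against 7.57% of all genes tested. A positive age by time interaction was found for 5 (3.13% of all genes), and 5 were lower in old H2O than in young hearts at ZT22 (6.17%). The young ZT22 heart with the sum of 2709 had the highest Rcan1 count, 1584, and the lowest Nppb count of its group, 640, and the one with the sum of 1323, within the day range, had 1163 and 654. The part of these genes' change in that of Rcan1 and Nppb was not tested.

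Myh7 ran the other way. It had 2835, 2330 and 2656 normalised counts in young hearts at ZT10 and 2213, 1684 and 1571 at ZT22, so that every day heart was above every night heart (log2 difference 0.52 ± 0.15, adjusted p = 0.0249, edgeR). The call was lost without ZT10 heart 1 (0.45) or 3 (0.5) or ZT22 heart 2 (0.46) or 3 (0.42, adjusted p = 0.127, edgeR). Old H2O hearts had 3169, 2597 and 2436 at ZT10 and 4644, 3199 and 3211 at ZT22, where each night heart exceeded each day heart (log2 difference -0.43, adjusted p = 0.123, edgeR). Old NR hearts had 2319, 2551 and 2528 at ZT10 and 2524, 2491 and 1811 at ZT22, with overlap. The age by time interaction was -0.94 ± 0.21 on the log2 scale (adjusted p = 0.00993, edgeR) and stayed called with single hearts omitted, from -1.11 to -0.76.

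At ZT22 the Myh7 level of old H2O hearts was above that of young hearts by 1.01 ± 0.15 on the log2 scale (adjusted p = 1.61e-04, edgeR), with no overlap, and this ranged from 0.83 to 1.17 with single hearts omitted. Averaged over both times the difference was 0.54 ± 0.11 (adjusted p = 0.00209, edgeR), and Myh7 was the 1 gene of 8 that passed in that comparison (11.8% of all genes did). Old NR hearts at ZT22 were lower than old H2O hearts (log2 difference -0.69 ± 0.15, adjusted p = 0.0469, edgeR). Here again Myh7 was the 1 gene of 8 that passed, against 0.350% of all genes, and the groups of 3 did not overlap. The call held only without old H2O heart 3, the other 5 omissions giving -0.5 to -0.79 with an adjusted p of 0.0548 to 0.163 (edgeR), and it was lost when only these groups were fitted (adjusted p = 0.243, edgeR).

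Myh6, the adult fast myosin of mouse heart, was called in 0 of 13 heart comparisons, and its counts varied little with sequencing depth. Raw Myh6 counts lay between 9056 and 10336 in all 18 hearts, a ratio of highest to lowest of 1.14, whereas the library totals differed by 1.93. Normalised Myh6 counts were 13880 in the heart with the lowest total and 7208 in the heart with the highest, both old H2O hearts at ZT22. With counts this flat, 0 calls do not show that Myh6 was unchanged. On log2 scales the Myh6 count rose by 0.08 for each unit of library total, and that of cardiac actin (Actc1), read here for the same property, by 0.16. The authors removed duplicate reads from single-end libraries, and the median slope went from 1.27 for genes with under 0.05 counts per base of exon to 0.39 for the 39 genes with more than 1 count per base, while in the cultures the same medians were 0.91 and 1.00. Myh6 stood at 1.45 counts per base. Slopes of the other members were 0.59 for Nppa, 0.73 for Myh7, 0.76 for Ankrd1, 1.02 for Xirp2, 1.04 for Rcan1, 1.05 for Nppb and 1.08 for Acta1. Whether duplicate removal causes the low slopes was not tested.

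**Figure D3:**
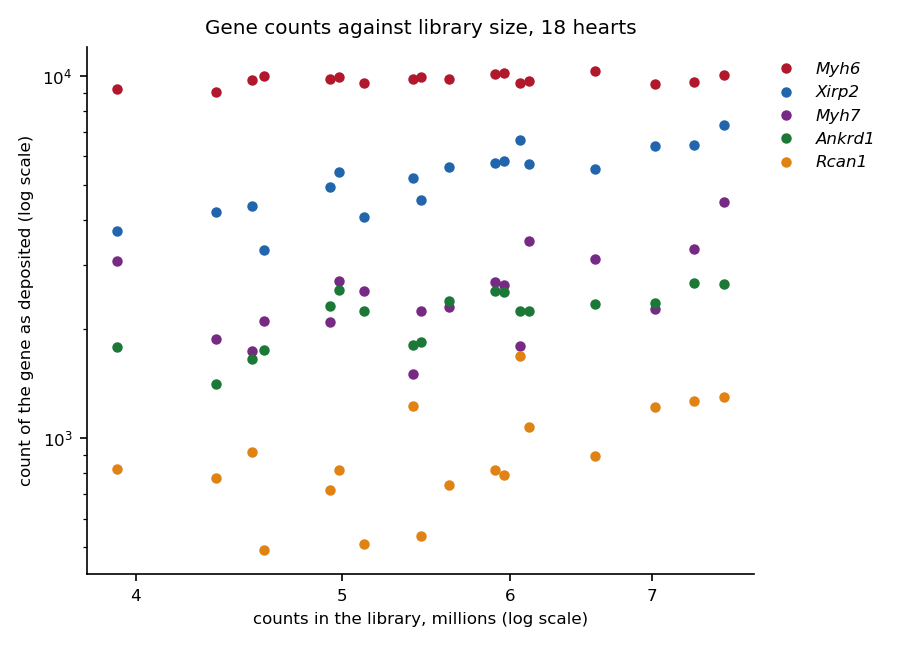
Deposited counts of Myh6, Xirp2, Myh7, Ankrd1 and Rcan1 against library total in the 18 hearts, both on log axes, with 1 point per gene and heart. Myh6 stays between 9056 and 10336 while totals run from 3922137 to 7562215, and the counts of Rcan1 and Xirp2 increase with the total.

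The share of Myh7 in the sum of Myh6 and Myh7, per exon length, was 15.5% ± 1.60 (SD, n = 3) in young hearts at ZT10 and 11.9% ± 1.10 at ZT22. In old H2O hearts it was 16.4% ± 1.79 at ZT10 and 22.9% ± 2.63 at ZT22, with single hearts at 20.7%, 22.1% and 25.8%, and in old NR hearts 17.1% ± 1.86 and 17.0% ± 3.82 (13.9%, 21.3% and 15.8% at ZT22). The old H2O night hearts were all above the young ones, while old NR night hearts overlapped old H2O ones. Because of the flat Myh6 counts, these shares are a description and were not tested. Myh6 counts rose less with library total than Myh7 counts did (slopes of 0.08 and 0.73), so the share also moves with depth. If Myh6 counts are too low in these libraries, the Myh7 shares are too high, by an amount that is not known here. The antisense RNA Mhrt overlaps 484 exonic bases of Myh7 and had 187 to 507 counts. The antisense genes Gm31251 (523 bases, 123 to 410 counts) and Gm29015 (142 bases, 9 to 29 counts) overlap it as well. Whether counting used the strand is not given in the sources used here, and reads placed equally well on both myosins were not counted.

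Acta1, the skeletal form of α-actin, was called in 0 of 13 heart comparisons. In young hearts it had 1247, 1005 and 637 normalised counts at ZT10 and 1517, 1157 and 1382 at ZT22, with a log2 difference of -0.48 (adjusted p = 0.123, edgeR) that passed without ZT10 heart 1 (-0.71, adjusted p = 0.037, edgeR). The spread within groups was wide, up to 1393, 767 and 686 in old H2O hearts at ZT10. At ZT22 the old H2O hearts had 949, 867 and 1096, and all were below the young ones, but the difference of -0.47 did not pass (adjusted p = 0.127, edgeR), except when only these groups were fitted (-0.46, adjusted p = 0.0325, edgeR). Old NR hearts had 1073, 911 and 1068 at ZT10 and 921, 958 and 867 at ZT22. The sum of skeletal muscle markers was 35.3 to 75.4 in the hearts.

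Ankrd1, the cardiac ankyrin repeat protein, was called in 0 of 13 heart comparisons as well. It had 2498, 1910 and 2196 normalised counts at ZT10 and 2095, 2103 and 1890 at ZT22 in young hearts, and 2995, 2446 and 2694 at ZT10 and 2687, 2046 and 1908 at ZT22 in old H2O hearts. Old NR hearts had 2412, 1919 and 2428 at ZT10 and 1897, 2008 and 1872 at ZT22. The largest age difference at a single time was 0.30 on the log2 scale at ZT10 (adjusted p = 0.159, edgeR), where 1 young heart at 2498 exceeded the lowest old H2O heart. Without old H2O ZT22 heart 1, at 2687, the day to night difference of old H2O hearts passed (0.45, adjusted p = 0.0214, edgeR), and without heart 3 the age difference averaged over both times did (0.26, adjusted p = 0.0496, edgeR). Heart 1 had the lowest library total, 3922137, and the lowest raw Ankrd1 count of its group, 1786. Ankrd1 stood at 1.24 counts per base of exon, or 0.759 with the longer model. With log2 library size as a covariate, chosen after seeing the data, the age difference passed at ZT10 (0.32, adjusted p = 0.0374, edgeR) and averaged over both times (0.23, adjusted p = 0.0252, edgeR). The part of depth was not tested.

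Nppa, the atrial natriuretic peptide, had 376, 221 and 195 normalised counts in young hearts at ZT10 and 223, 243 and 224 at ZT22. Old H2O hearts had 360, 316 and 428 at ZT10 and 245, 299 and 166 at ZT22, with a log2 difference of 0.65 (adjusted p = 0.0641, edgeR) that was 0.89 without ZT22 heart 2 (adjusted p = 0.0244, edgeR). Old NR hearts had 210, 171 and 212 at ZT10, and 227, 236 and 176 at ZT22. The old NR hearts at ZT10 were all below the old H2O ones (log2 difference -0.90 ± 0.20, adjusted p = 0.0522, edgeR), on the edge of the threshold: the adjusted p was 0.0371 with no filter on low counts, 5.42e-05 when only these groups were fitted, 0.0773 with DESeq2, and 0.0571 to 0.309 with 1 heart omitted. None of the 8 genes passed in this comparison (0.285% of all genes did), although 3 of 8 had groups that did not overlap (18.8% of all genes). None passed for NR averaged over both times (0.337%) or for the NR by time interaction (0.343%, with Nppa at -0.76, adjusted p = 0.330, edgeR).

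Because Nppa is made mostly in the atria, a sum of 12 atrial marker genes was read in the same hearts. It ranged from 2691 to 7456 normalised counts, and all 12 markers had counts. The 5 hearts with the highest Nppa counts, at 299 or more, were the same 5 hearts that had the highest atrial sums, at 4986 or more, and the other 13 hearts had at most 245 and 3929. In old H2O hearts at ZT10 the sums were 4986, 5228 and 6415, and in old NR hearts at ZT10 they were 3018, 2940 and 2970. Young ZT10 heart 1 had the highest sum, 7456, and the highest Nppa (376) and Nppb (379) of its group. Its Nppb was still below that of every young ZT22 and every old H2O heart. Without this heart the Nppa difference of old H2O from young hearts at ZT10 went from 0.47 (adjusted p = 0.179, edgeR) to 0.81 (adjusted p = 0.0143, edgeR). The part of atrial tissue in the Nppa values was not tested.

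**Figure D4:**
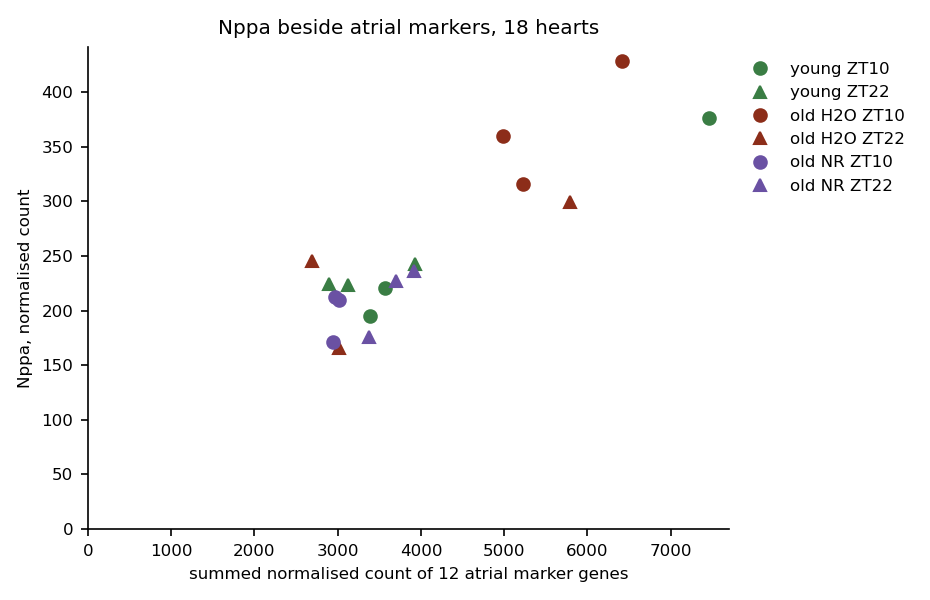
Nppa against the sum of 12 atrial markers, as normalised counts, with 1 point per heart, coloured by age and drink and shaped by time. The 5 hearts with atrial sums of 4986 or more hold the 5 highest Nppa counts, from 299 to 428.

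Reads from Nppa can also fall on the antisense gene Gm13054, which shares 532 of the 865 exonic bases (61.5%) and had 1 to 17 counts, so reads in the shared bases may be lost to both genes if counting ignored the strand.

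Other genes of the same pathways were read from lists of known members. Of all genes tested, 7.57% were lower and 6.80% higher at ZT10 in young hearts. The interaction was positive for 3.13% and negative for 3.76%. At ZT22, 7.96% were higher and 6.17% lower in old H2O than in young hearts. In the stretch-sensing list (13 of 14 tested), 4 were lower and 1 higher at ZT10 in young hearts, with the titin-associated protein Ankrd23 at -1.08 ± 0.16, the Z-disc protein Mypn at -0.48 ± 0.09 and filamin C (Flnc) at -0.50 ± 0.11 on the log2 scale. Ankrd23, Mypn and Flnc were also the 3 with a positive age by time interaction (0.99, 0.71 and 0.57), the same sign as that of Xirp2. Median differences of this list were -0.12 for time in young hearts and 0.17 for the interaction, with 0.01 and 0.00 over all genes tested.

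In the natriuretic peptide list (9 of 10 tested), 1 gene was higher and 1 lower at ZT10 in young hearts, the cGMP-dependent kinase Prkg1 (0.81 ± 0.11, adjusted p = 3.03e-05, edgeR) and the propeptide convertase Furin (-0.36 ± 0.08, adjusted p = 0.00223, edgeR). Furin had a positive interaction (0.43, adjusted p = 0.0192, edgeR), as Nppb did. The clearance receptor Npr3 (0.64 ± 0.19) and the peptide-degrading enzyme Mme (0.45 ± 0.12) were higher in old H2O than in young hearts at ZT22, where 3 genes of the list were higher and 1 lower. For NR averaged over both times, 0 of 9 passed.

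In the calcineurin and NFAT list (13 of 13 tested), 3 genes were higher and 1 lower at ZT10 in young hearts, and these were smaller differences than that of Rcan1 and of mixed sign. Nfatc2 was higher at ZT10 (0.66 ± 0.14), the calcineurin catalytic subunit Ppp3ca was higher (0.20 ± 0.06) and Nfatc3 was lower (-0.25 ± 0.06). Nfatc2 had a negative age by time interaction (-0.71, adjusted p = 0.0316, edgeR), opposite in sign to that of Rcan1. The list's median was -0.02, against 0.01 for all genes.

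Among 12 myosin, actin and troponin partners, 0 passed for time in young hearts or for the interaction, and 2 were lower in old H2O than in young hearts at ZT22, the slow myosin paralogue Myh7b (-0.46) and smooth muscle actin Acta2 (-0.31). Among 7 tested genes of thyroid hormone receptors and supply, which set the balance of Myh6 and Myh7 in rodents, 0 passed for time in young hearts. In old H2O hearts 2 were lower at ZT10 than at ZT22 (4.20% of all genes passed), and 1 had a negative age by time interaction (6.89% passed). At ZT22, 1 was higher in old H2O than in young hearts (14.1% passed), and 1 was lower in old NR than in old H2O hearts (0.350% passed). Among 17 hypertrophic transcription factors, 4 were higher and 2 lower at ZT10 in young hearts. Srf, which drives Acta1 and Nppa in other settings, was lower at ZT10 (-0.47 ± 0.08, adjusted p = 2.58e-04, edgeR) with a positive interaction (0.44), and Klf15, a repressor of hypertrophic growth, was higher at ZT10 (0.48 ± 0.08). The Klf15 day to night difference was 0.87 ± 0.08 in old H2O hearts, and its NR by time interaction was -0.73 (adjusted p = 0.00562, edgeR).

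Among 17 other secreted and stress-induced markers, 4 were lower and 0 higher at ZT10 in young hearts, including the matricellular gene Ccn1 (-1.0 ± 0.14), endothelin 1 (Edn1, -0.89 ± 0.16) and the small heat shock protein Hspb1 (-0.40 ± 0.11). Periostin (Postn), a matrix protein of activated fibroblasts, was lower in old NR than in old H2O hearts averaged over both times (-0.43 ± 0.06, adjusted p = 0.00177, edgeR), 1 of 17 in a comparison in which 0 of the 8 members passed. The sum of 7 fibroblast markers, of which Postn itself is 1, was also lower in old NR hearts. It was 5515 to 6287 against 6930 to 7983 in old H2O hearts at ZT10 and 5807 to 6823 against 7227 to 8430 at ZT22. The part of fibroblast content in the Postn difference was not tested. Nmrk2, a muscle kinase that uses NR, had an NR by time interaction of 1.17 (adjusted p = 0.0201, edgeR).

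Genes that followed each member most closely over the 18 hearts were ranked by Pearson's r of log2 CPM (counts relative to the library total) among 11075 genes. For Rcan1 they were Amotl1 (0.96), Unc119b (0.95) and Cep85 (0.94), for Nppb AW011738 (0.92), Mical2 (0.92) and Tnfrsf12a (0.89), and for Xirp2 Clic5 (0.89), Kif5b (0.86) and Eloa (0.83). For Nppa they were Stard10 (0.89), which is on the atrial list, Gpx3 (0.89) and Pam (0.88), and for Ankrd1 Lmo7 (0.88), Cds2 (0.87) and Mpc1-ps (0.86). Myh7 was followed less closely, by Adam11 (0.86), Fbxw17 (0.82) and Pcdhb22 (0.80), and so was Acta1, by E2f4 (0.78), Plin2 (0.73) and Lrrc27 (0.73). For Myh6 they were Mb, Myl3 and Actc1 (0.99 each), which are other abundant cardiomyocyte genes. Raw counts of Myh6 (9056 to 10336), Myl3 (1687 to 1994) and Actc1 (2549 to 2847) varied little, while library totals differed by 1.93. The part of depth in the r of these genes was not tested. The points share age, time and depth, and these values are a description.

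The cultures labelled HL-1 were checked against their label first. Of 8 cardiomyocyte genes, 6 had any count and 5 averaged under 5 counts. Actc1 and Pln had 0 counts in all 12 libraries and Actn2 had 0 to 3. The summed normalised count of this list was 20.5 to 119, against 46726 to 66667 in the hearts on their own scale. Genes of epicardium and mesothelium summed to 67800 to 81324, against 67.4 to 171 in the hearts, with raw counts of 27764 to 50422 for Upk3b, 10682 to 19197 for Wt1 and 5645 to 14283 for Msln. The 7 fibroblast markers were also high, at 66355 to 108066 against 5515 to 8700 in the hearts, although 2 of them averaged under 5 counts. The 12 atrial markers summed to 1408 to 1928, against 2691 to 7456, and 5 of them averaged under 5 counts. Raw counts were 0 to 1 for Sln, 3 to 24 for Myl7 and 750 to 1271 for Nr2f2. The label HL-1 is kept for the cultures, but the defining genes of cardiomyocytes were near 0 in them.

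Accordingly, 6 of the 8 members were at or near 0 in the cultures. Raw counts were 0 to 3 for Nppa, 0 to 2 for Myh7, 0 to 2 for Xirp2, 0 to 6 for Myh6 and 0 to 8 for Acta1, where 3 counts, the limit that a count of 0 allows, correspond to 0.0857 to 0.141 CPM. Nppb had 1, 5 and 2 counts in untreated cultures, 8, 7 and 9 with FK866, 0, 1 and 2 with FK866 and NR, and 2, 4 and 3 with Ex527 added. The FK866 counts were the highest of the 4 groups, but at this depth they were too few to be tested.

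Ankrd1 was well expressed. It had 1701, 1679 and 1968 normalised counts in untreated cultures, 4150, 4221 and 4137 with FK866, 1779, 1986 and 1932 with FK866 and NR, and 2837, 2658 and 3414 with FK866, NR and Ex527. FK866 cultures were above every other culture, FK866 and NR cultures overlapped untreated ones, and the cultures with Ex527 lay between. Ankrd1 rose by 1.23 ± 0.09 on the log2 scale with FK866 (adjusted p = 3.47e-07, edgeR) and fell by 1.13 ± 0.09 when NR was added to FK866 (adjusted p = 8.50e-07, edgeR). FK866 with NR differed from untreated by 0.09 ± 0.09 (adjusted p = 0.461, edgeR).

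With Ex527 added, Ankrd1 was higher than with FK866 and NR by 0.64 ± 0.09 (adjusted p = 6.27e-04, edgeR) and higher than in untreated cultures by 0.74 (adjusted p = 1.80e-04, edgeR). Its log2 difference from FK866 alone was -0.49 (adjusted p = 0.00228, edgeR), which is under the 1.5-fold that a call also required here. Without the third Ex527 culture, at 3414, the difference from FK866 and NR was 0.52, also under 1.5-fold, and the call was lost, while that from FK866 alone was -0.61 and passed. The calls for Ankrd1 with FK866 and with NR added to FK866 stayed with single cultures omitted. The comparisons share the FK866 and the FK866 and NR cultures.

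Rcan1 was also highest with FK866, within a smaller range. It had 533, 560 and 575 normalised counts in untreated cultures, 684, 722 and 618 with FK866, 461, 486 and 441 with FK866 and NR, and 535, 553 and 536 with Ex527 added. FK866 cultures were all above untreated ones (0.28, adjusted p = 0.0136, edgeR), and FK866 and NR cultures all below FK866 ones (-0.54, adjusted p = 1.21e-04, edgeR), but neither reached 1.5-fold with an adjusted p under 0.01. Without the third FK866 culture, the latter was -0.62 (adjusted p = 5.87e-05, edgeR) and passed. FK866 and NR cultures were also all below untreated ones (-0.27, adjusted p = 0.0244, edgeR). With Ex527 added, Rcan1 differed from untreated by -0.04 (adjusted p = 0.752, edgeR).

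Of the 2 members tested, 1 was called for FK866 against untreated (4.59% of 14760 genes), 1 for NR added to FK866 (4.81%), 0 for FK866 and NR against untreated (0.901%), 1 for Ex527 against FK866 and NR (0.596%), 0 for Ex527 against FK866 (1.27%) and 1 for Ex527 against untreated (1.42%). Both members had FK866 and untreated groups that did not overlap, as had 36.6% of all genes, and so it was for both with NR added to FK866 (42.8%), with Ex527 against FK866 and NR (33.3%) and with Ex527 against FK866 (29.5%). It was so for 1 of 2 with FK866 and NR (45.0%) and with Ex527 (37.7%) against untreated. With an adjusted p under 0.05 and no fold threshold, both members passed for FK866 against untreated (24.8% of all genes), for NR added to FK866 (28.9%), and for Ex527 against FK866 (12.2%), Rcan1 alone for FK866 and NR against untreated (23.9%), and Ankrd1 alone for Ex527 against FK866 and NR (7.17%) and against untreated (16.3%).

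**Figure D5:**
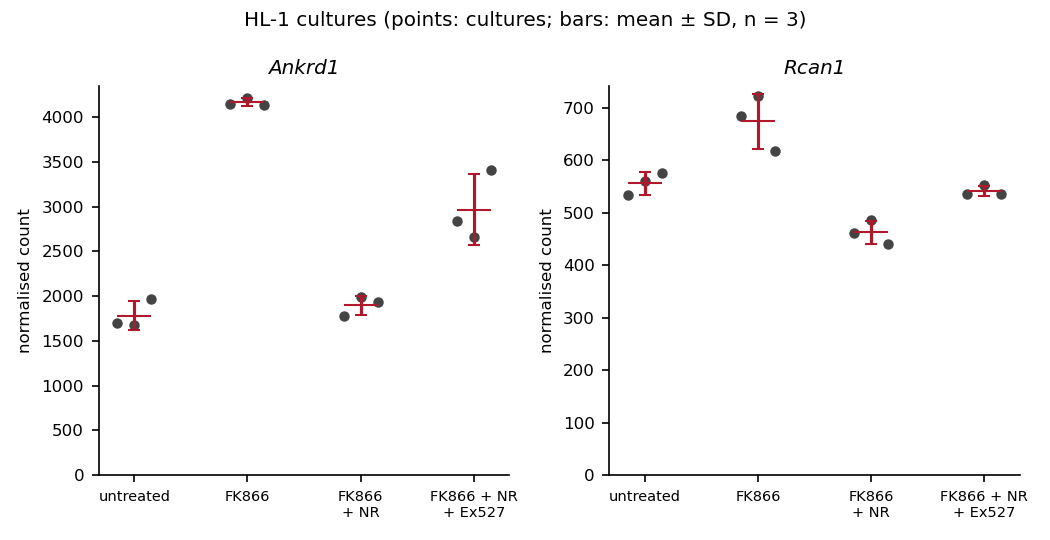
Normalised counts of Ankrd1 and Rcan1 in the 12 cultures labelled HL-1 (points, cultures, bars, mean ± SD, n = 3). Ankrd1 is at 4137 to 4221 with FK866 and at 1779 to 1986 when NR is added.

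In the cultures the stress-induced markers Lgals3 and Cyr61, like Ankrd1, were higher with FK866 and lower when NR was added to it. Cyr61 is another name of the gene given as Ccn1 for the hearts. Of 15 tested genes of that list, 3 were higher and 1 lower with FK866, and 1 was higher and 3 lower when NR was added to FK866. Of all 14760 genes tested, 4.59% were called with FK866 and 4.81% when NR was added to it. Lgals3, which encodes galectin 3, rose by 1.14 ± 0.09 and fell by 1.47 ± 0.09 on the log2 scale, and Cyr61, a target of YAP and TEAD factors, rose by 0.98 ± 0.09 and fell by 1.0 ± 0.09. The cGMP phosphodiesterase Pde5a moved the other way, by -1.01 ± 0.08 with FK866 and 1.24 ± 0.08 with NR added (adjusted p = 1.73e-07, edgeR). None of 11 calcineurin and NFAT genes and none of 7 stretch-sensing genes was called in either comparison. For lists this short, that is near the 4.59% and 4.81% of all genes called. Over the 12 cultures, the genes closest to Ankrd1 among 11579 were Gfm1 (0.98), Cyr61 (0.97) and Oasl1 (0.97), and those closest to Rcan1 were Sirt2 (0.98), Htatip2 (0.98) and Cox7a2l (0.97).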

How the data were processed

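RNA-seq of 18 hearts and 12 cultures labelled HL-1 was used, with the 8 members and all lists chosen with earlier results of these data known. For the hearts, the authors trimmed reads (Trimmomatic 0.39), aligned them to mm10 (STAR 2.7.10a), removed duplicates (Picard 3.0.0) and counted them (featureCounts 2.0.4), and deposited a table of counts and a table of normalised counts from DESeq2 1.36.0, a score not used for tests. The labels of these tables are swapped, and the whole-number table with differing totals was used as counts. For the cultures, whose tools are listed as HISAT2 and TopHat2, the authors deposited counts, gene lengths and FPKM values, and FPKM served only as a check of the counts. Hearts were separate mice and cultures separate wells.

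All groups of each table were fitted together (edgeR 4.0.16, limma 3.58.1, R 4.3.3) with TMM factors, the quasi-likelihood test and Benjamini-Hochberg adjustment over all genes. Heart genes needed an average count over 5, and culture genes passed filterByExpr. Calls needed an adjusted p under 0.05 in hearts, and an adjusted p under 0.01 with over 1.5-fold in cultures. The fits were tested on simulated data. Named genes are the 8 members, the 3 genes most like each by Pearson's r among those averaging at least 50 counts, and up to 3 called genes per list and comparison with the smallest p. The GGAAA search was added after seeing the data. Alternatives were DESeq2 1.42.0, other normalisation, filters and samples, a replicate block, each library left out and, chosen after seeing the data, log2 library size as a covariate. 1 gene of the lists is not reported here.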

Additional observations from a re-analysis of the deposited data

Results flagged for a closer look

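The day to night contrast differed between young and old H2O hearts, by the interaction test itself, for 4 of the 8 genes. The log2 difference of ZT10 from ZT22 went from -1.44 in young to 0.10 in old H2O hearts for Nppb (interaction 1.53). For Rcan1 it went from -1.21 to -0.28 (0.93), and for Xirp2 from -0.36 to 0.13 (0.50). For Myh7 it changed sign, from 0.52 to -0.43 (-0.94). Each interaction kept its sign in every one of the fits that left out a heart, but the call for Xirp2 was lost in 10 of 12 of them. No cause of these differences was tested.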

How the results depend on the processing

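The counts are of members called. Between replicates that share a number, the correlation of deviations had a median of 0.08 in hearts (-0.25 to 0.31). Between other numbers it was -0.04 (-0.45 to 0.42). In the cultures it ranged from -0.55 to 0.23 for shared and from -0.51 to 0.57 for other numbers. These ranges overlap and cannot decide whether the numbers mark a pairing or a batch, and the main fits used neither. With the replicate block, the count went from 0 to 2 for time in old H2O hearts, from 0 to 1 for NR at ZT10 and from 0 to 1 for NR averaged over both times. With no filter on low counts, NR at ZT10 went from 0 to 1. With only the groups compared in the fit, it went from 0 to 1 at ZT10 and from 1 to 0 at ZT22, and old NR against young hearts at ZT10 from 1 to 2, while old H2O against young hearts at ZT22 stayed at 2 with Acta1 in place of Rcan1. With log2 library size as a covariate, chosen after seeing the data, time in old H2O hearts went from 0 to 1, old H2O against young hearts averaged over both times from 1 to 2, and old NR against young hearts at ZT10 from 1 to 3. With an adjusted p under 0.05 and no fold threshold, the cultures had 2 calls for FK866 against untreated, 2 for NR added to FK866, 1 for FK866 and NR against untreated and 2 for Ex527 against FK866. From counts without length, the Myh7 share was 19% in young hearts at ZT10, 14.7% at ZT22, 20% and 27.5% in old H2O hearts and 20.9% in old NR hearts at ZT10. DESeq2 and DESeq2 size factors moved none of these counts by more than 1.5 times.

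With each library left out, called members ranged from 2 to 4 for time in young hearts, 0 to 1 in old H2O hearts and 0 to 1 in old NR hearts, and from 3 to 4 for the age by time interaction. For old H2O against young hearts they ranged from 2 to 3 at ZT10, 1 to 2 at ZT22 and 1 to 3 averaged over both times. For NR they were 0 at ZT10, 0 to 1 at ZT22 and 0 to 1 averaged. For old NR against young hearts they ranged from 0 to 1 at ZT10 and stayed at 2 at ZT22. In the cultures they ranged from 1 to 2 for NR added to FK866, and from 0 to 1 for Ex527 against FK866 and NR and against FK866. The only direction that turned was that of Nppa for NR at ZT22, -0.14, which ranged from -0.38 to 0.10 and was 0.10 without old H2O ZT22 heart 2. Over all genes, the count of calls moved by more than 1.5 times with the depth covariate in 10 of 19 comparisons, with only the groups compared in 6 of 19, with the block in 4 of 19, with no filter in 4 of 19 and with DESeq2 in 2 of 19.

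Depth limits Nppa, at 155 to 368 counts per heart, Nppb, at 122 to 682, and the 6 members near 0 in the cultures. Groups of 3 limit every test.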

Other observations

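Smooth muscle actin Acta2 was lower in old H2O than in young hearts averaged over both times (-0.33 ± 0.05, adjusted p = 2.17e-04, edgeR) and lower again in old NR than in old H2O hearts at ZT22 (-0.42 ± 0.07, adjusted p = 0.0111, edgeR). Galectin 3 (Lgals3), a macrophage-rich stress marker, was higher in old H2O than in young hearts at ZT10, at 73.2 ± 26.5 against 29.9 ± 3.86 (adjusted p = 0.00753, edgeR). The sum of 7 macrophage markers was 1938 to 2222 in those hearts against 1658 to 1868 in the young ones, and its part in the Lgals3 difference was not tested.

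In the cultures, the thyroid hormone receptor gene Thra was lower with FK866 (-0.68 ± 0.10, adjusted p = 2.40e-04, edgeR) and higher when NR was added (0.61 ± 0.10, adjusted p = 5.94e-04, edgeR), while the transporter Slc16a10 moved the other way (0.92 ± 0.17 and -0.98 ± 0.17). The cardiac troponin gene Tnnt2 was higher with FK866, at 31.8 ± 11.7 against 4.26 ± 0.217 normalised counts in untreated cultures (adjusted p = 3.64e-04, edgeR), which are low counts at this depth. Osteopontin (Spp1, -0.92 ± 0.07) and Gata6 (-0.62 ± 0.05) were lower with FK866.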
